A study of Mus musculus with 6 samples.

Results

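The mir-183, mir-96 and mir-182 cluster was followed through small RNA sequencing of 6 mouse libraries, as the 3 entries of the deposited table that carry exactly these names, out of 1006 entries. Of the libraries, 2 came from Myo-EVs, the extracellular vesicles that C2C12 cells (a mouse myoblast line) release into their medium, and 2 from FFSS-Myo-EVs, released by C2C12 cells kept on an orbital shaker that exposed them to fluid flow shear stress (FFSS). The Myo-EVs carry the label control for stress, as do the remaining libraries, 1 of primary osteoblasts (OB) and 1 of primary bone marrow cells (BM), which were labelled as 8 to 10 weeks of age. The study's methods instead take osteoblasts from the calvariae of newborn male mice, and bone marrow from the tibiae of an adult male mouse. The labels give all 6 libraries, C2C12 included, a mixed background with 81.25% from C57BL/6J and 18.75% from 129/SvJ, and the same growth protocol of 48 hr, which mentions vitamin D3 or dexamethasone but assigns neither to a library. Nothing states whether the EV libraries of a group came from separate cultures, so p-values measure only the spread between these libraries, which may be technical. Vesicles were pelleted from medium that had been cleared of serum vesicles, and the level in a vesicle library is a share of vesicle RNA, not of the RNA inside the C2C12 cells, which were not analysed here.

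A microRNA is cut from a hairpin in a longer primary transcript, and the mature strand guides the silencing machinery to mRNAs that pair with its seed, the bases from 2 to 8 at the 5′ end. The mir-183, mir-96 and mir-182 hairpins lie in the same primary transcript and are known for their high levels in sensory cells of the inner ear and retina and in several epithelia. Targets described for them include Foxo1 and Foxo3, transcription factors that in skeletal muscle switch on the ubiquitin ligases of protein breakdown and in osteoblasts take part in the defence against oxidative stress.

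The mature 5p forms are shown because their seeds decide which members can act on the same sites. They are RefSeq sequences on GRCm38.p6, all 3 from the minus strand of chromosome 6, and capitals mark the seed.
miR-183-5p (chr6:30169711-30169732): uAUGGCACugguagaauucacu
miR-96-5p (chr6:30169506-30169528): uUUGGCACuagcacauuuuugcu
miR-182-5p (chr6:30165962-30165986): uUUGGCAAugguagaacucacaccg

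Counting positions from 1 at the 5′ end, miR-96-5p and miR-182-5p carried the same bases 2 to 7 (UUGGCA) and differed within the seed by the substitution C8A. From miR-183-5p to miR-96-5p the seed differed by A2U, and from miR-183-5p to miR-182-5p by A2U and C8A. Over the whole length the order of likeness was different, since miR-183-5p and miR-182-5p were identical at 18 of 22 positions from the 5′ end, against 13 of 22 for miR-183-5p and miR-96-5p and 12 of 23 for miR-96-5p and miR-182-5p. In the RefSeq table the only other mature form with bases 2 to 7 of miR-96-5p and miR-182-5p was miR-1271-5p, for which the deposited table gave 0 entries, and none besides miR-183-5p had those of miR-183-5p.

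Each entry holds the reads of a whole precursor, so the 5p and 3p forms were counted together. The precursors are given in the order of transcription, with both mature forms in capitals, to show the arms that a read of each entry can come from.
mir-183 (chr6:30169668-30169737, minus strand): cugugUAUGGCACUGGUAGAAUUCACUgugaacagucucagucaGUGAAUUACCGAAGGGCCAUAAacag
mir-96 (chr6:30169446-30169551, minus strand): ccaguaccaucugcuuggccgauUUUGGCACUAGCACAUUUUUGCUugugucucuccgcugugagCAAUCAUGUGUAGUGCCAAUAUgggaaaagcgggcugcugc
mir-182 (chr6:30165918-30165992, minus strand): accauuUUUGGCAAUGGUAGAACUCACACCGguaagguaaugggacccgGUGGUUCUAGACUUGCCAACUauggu

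The 3 precursors spanned 3820 bases, with 116 bases between mir-183 and mir-96 and 3453 between mir-96 and mir-182. RefSeq places all of them inside the long noncoding RNA gene Mirc35hg (chr6:30158640-30174125), whereas in GENCODE M21 the only genes over this span were Mir183, Mir96 and Mir182 themselves. The longest stretch that a member's precursor shared with any of 1004 other precursors was 10 bases, and 8 bases with a mate, which is shorter than the mature forms of 21 to 25 bases.

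**Figure D1:**
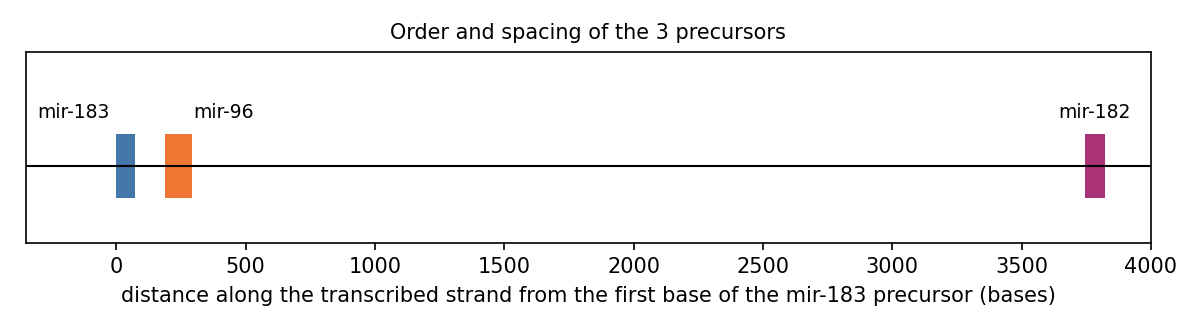
Map of the 3 precursors by distance in bases from the first base of the mir-183 precursor, drawn to scale along the transcribed strand. The mir-183 and mir-96 boxes lie 116 bases apart, and mir-182 lies 3453 bases beyond mir-96.

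The depth of the libraries ranged from 2414132 to 6092460 counts. The labelled sources were checked on marker miRNAs. The myoblast miRNA mir-206 had a normalized expression value (the read count times 1 constant per library, set by the authors) of at least 1968.5 in each EV library, against 91.7 in OB and 7.9 in BM, and the muscle miRNAs mir-1a and mir-133a were at 20.4 or below in each EV library. The 2 entries of mir-1a were higher in BM, at 30.6 and 31.4, than in the vesicles, where they were at 6.0 or below. The 2 entries of mir-133a, copies of 1 name, had 19 counts or fewer in each EV library. Both were called lower with FFSS in edgeR (log2 fold changes -1.49 and -1.92, adjusted p = 0.00647 and 7.36e-04), as were 18.4% of all tested entries. The better counted mir-206 was not called (log2 fold change 0.15, adjusted p = 0.420 in edgeR). The matched entries of the mesenchymal list (3 of 4 names, without mir-145) summed to between 301690 and 403513 in the EV libraries, 452990 in OB and 19897 in BM. Of these, mir-143 was lower in OB (269506) than in each EV library (274482 or above), whereas mir-199a and mir-214 were higher in OB. The list thus set BM apart, but did not clearly separate OB from the vesicles. The unmatched mir-145 is listed with suffixes, and mir-145a had means of 25080 in Myo-EVs and 23173 in FFSS-Myo-EVs. The leukocyte miRNA mir-223 was 9710 in BM, 122.0 in OB and 7.0 or below in the EV libraries. The 4 matched entries of the blood cell list summed to 11.0 and 9.6 in Myo-EVs and to 43.9 and 34.3 in FFSS-Myo-EVs, and their part in the values below was not tested.

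All 3 members were most abundant in the vesicles, intermediate in osteoblasts and lowest in bone marrow cells, and in each library mir-182 was above mir-183 and mir-183 above mir-96. The Myo-EV libraries held mir-182 at 6621 and 8351, and it was at 8609 and 8796 in the FFSS-Myo-EV libraries, 836.1 in OB and 38.1 in BM. All 4 vesicle libraries lay above OB by several fold, and the groups of vesicles came close to each other. The corresponding value for mir-183 was 2484 and 3318 in Myo-EVs, 3602 and 3523 in FFSS-Myo-EVs, 550.6 in OB and 27.8 in BM. For mir-96 it was 199.8 and 158.1 in Myo-EVs, 250.0 and 255.8 in FFSS-Myo-EVs, 79.0 in OB and 3.6 in BM. The value in BM rested on 9 counts of mir-96, 70 of mir-183 and 96 of mir-182.

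Ranked among all entries, mir-182 took places 42 and 36 in Myo-EVs and place 38 in both FFSS-Myo-EV libraries, and was 132 in OB and 240 in BM. The rank of mir-183 was between 69 and 79 in the vesicles, 145 in OB and 265 in BM, and that of mir-96 between 156 and 183 in the vesicles, 244 in OB and 446 in BM. Together the members took 0.323% and 0.409% of the counts in Myo-EVs, 0.413% and 0.427% in FFSS-Myo-EVs, 0.0512% in OB and 0.00287% in BM. The cluster was thus a small part of every library, and its members held higher ranks in the vesicles than in either cell library.

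**Figure D2:**
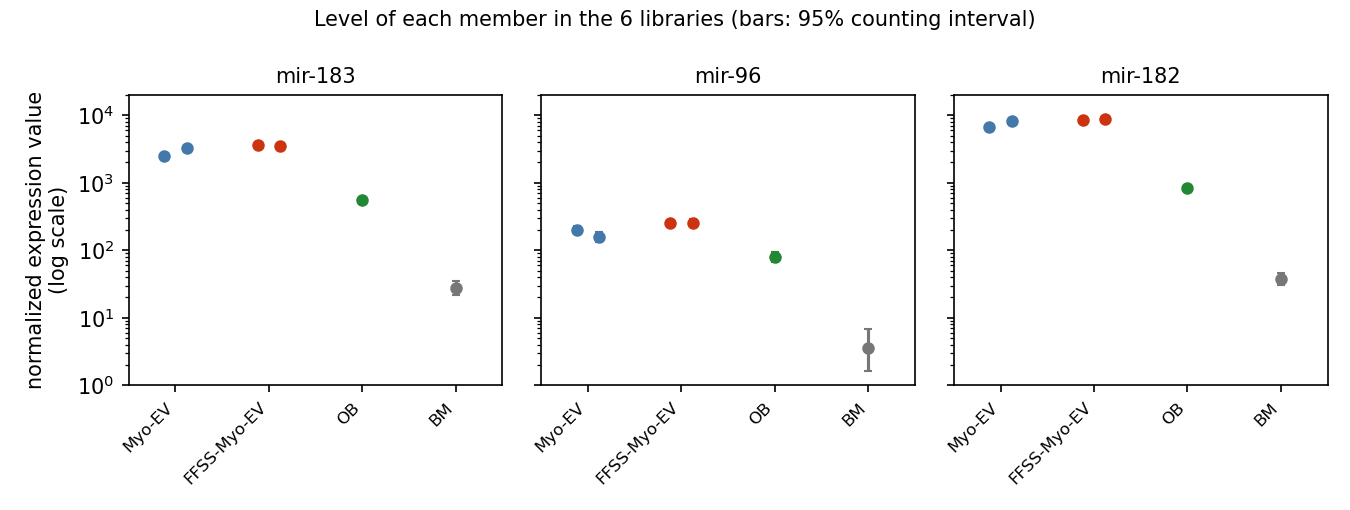
Normalized expression value (log scale) of mir-183, mir-96 and mir-182 by group, with 1 point for each of the 6 libraries and bars for the 95% exact Clopper-Pearson interval of the count. In each panel the vesicle libraries are highest and BM is lowest, from 6621 or more down to 38.1 for mir-182.

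The levels in OB and BM come from 1 library each, so that the comparisons with the vesicles have no replicate error on the side of the cells and were not tested. The intervals given for them are 95% exact Clopper-Pearson intervals of the counts. Reads were amplified by PCR and carry no molecular identifiers, so these intervals cover nothing but counting error. In a mixed cell population, fewer cells that carry a miRNA and less of it per cell cannot be told apart.

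Relative to osteoblasts, mir-182 was 8.95 ± 1.46 (SD, n = 2) times higher in Myo-EVs and 10.4 ± 0.16 (SD, n = 2) times higher in FFSS-Myo-EVs. The ratio of mir-183 was 5.27 ± 1.07 (SD, n = 2) in Myo-EVs and 6.47 ± 0.10 (SD, n = 2) in FFSS-Myo-EVs. It was smallest for mir-96, with 2.27 ± 0.37 (SD, n = 2) in Myo-EVs and 3.20 ± 0.052 (SD, n = 2) in FFSS-Myo-EVs. The mates were therefore not higher in the vesicles by the same factor. Over the counting error of OB, the ratio for Myo-EVs ranged from 8.51 to 9.42 for mir-182, from 4.95 to 5.61 for mir-183 and from 1.92 to 2.69 for mir-96, and these ranges did not overlap.

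All 3 members exceeded OB by more than 2-fold in both kinds of vesicles. Of all entries, 443 had a mean of at least 10 over the 6 libraries, and 35.7% of these did so in Myo-EVs and 35.4% in FFSS-Myo-EVs, where levels under 3 counts were set to 3 counts. With median-of-ratios size factors over the 6 libraries in place of the authors' scaling, the ratio of Myo-EVs to OB was 1.85 for mir-96. With this background, the ratio of FFSS-Myo-EVs to OB ranked 71 for mir-182, 88 for mir-183 and 128 for mir-96 among the 443 entries, whose median ratio was 1.10. The members were thus on the vesicle side of the table but not at its end.

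Against bone marrow cells the ratios were larger. Myo-EVs were 196 times BM for mir-182 (161 to 242 over the counting error of BM), 104 times for mir-183 (82.6 to 134) and 49.7 times for mir-96 (26.4 to 109). FFSS-Myo-EVs were 228 times BM for mir-182 (187 to 282), 128 times for mir-183 (101 to 164) and 70.3 times for mir-96 (37.3 to 155). More than 2-fold above BM were 45.6% of the 443 entries in Myo-EVs and 46% in FFSS-Myo-EVs. Among these ratios for FFSS-Myo-EVs, mir-182 ranked 14, mir-183 ranked 17 and mir-96 ranked 26, and the median over all entries was 1.55.

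Between the cells, the factor was nearly the same for all 3 mates. OB exceeded BM by 21.9 times for mir-182 (95% interval of counting error 17.8 to 27.2), by 19.8 times for mir-183 (15.5 to 25.6) and by 21.9 times for mir-96 (11.3 to 49.3). The intervals overlapped, and more than 2-fold above BM in OB were 32.7% of the 443 entries.

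**Figure D3:**
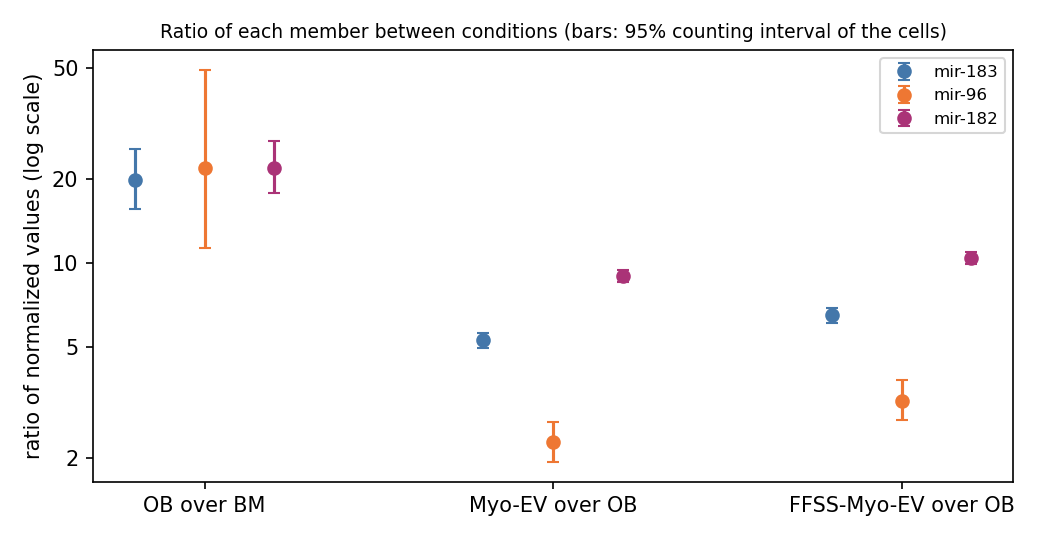
Ratio of normalized expression values (log scale) of mir-183, mir-96 and mir-182 for OB over BM, Myo-EV over OB and FFSS-Myo-EV over OB, where bars show the 95% counting interval of the cell libraries and not the spread between vesicle libraries. The 3 mates lie together between 19.8 and 21.9 for OB over BM and apart in the vesicles, where Myo-EV over OB is 2.27 for mir-96 and 8.95 for mir-182.

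The balance of the mates was then compared within each library, where the scaling between libraries plays no part. A read stands for a mature strand whatever the length of its precursor, but ligation and amplification depend on the sequence, so that such a ratio was compared between libraries and not taken as a ratio of molecules. The count of mir-182 was 2.67 and 2.52 times that of mir-183 in the Myo-EV libraries, 2.39 and 2.50 times in the FFSS-Myo-EV libraries, 1.52 times in OB (95% interval 1.40 to 1.65) and 1.37 times in BM (0.997 to 1.89). The lowest counting interval among the vesicle libraries started at 2.30, so that all 4 lay above the intervals of both cells. The mean log2 ratio of the 4 vesicle libraries was above that of OB by 0.73 and above that of BM by 0.88.

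The reverse held for mir-96. Its count was 0.0804 and 0.0477 of that of mir-183 in Myo-EVs, 0.0694 and 0.0726 in FFSS-Myo-EVs, 0.143 in OB (0.120 to 0.171) and 0.129 in BM (0.0565 to 0.258). All 4 vesicle libraries were below the interval of OB, whereas the interval of BM, with 9 counts of mir-96, reached down into the range of the vesicles. Relative to mir-182, mir-96 was at between 0.0189 and 0.0302 in the 4 vesicle libraries, 0.0945 in OB (0.0790 to 0.112) and 0.0938 in BM (0.0416 to 0.186). With this pair the vesicles lay below both cells.

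As shares of the cluster's reads, mir-182 made up from 69.1% to 71.2% in the vesicle libraries, 57.0% in OB and 54.9% in BM. The share of mir-183 was from 26.7% to 28.9% in the vesicles, 37.6% in OB and 40.0% in BM, and that of mir-96 was from 1.34% to 2.15%, 5.39% and 5.14%, respectively. Of the reads of mir-96 and mir-182, whose 5p forms share the bases UUGGCA, from 97.1% to 98.1% came from mir-182 in the vesicles, 91.4% in OB and 91.4% in BM. In every library most reads of this pair were thus those of mir-182.

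**Figure D4:**
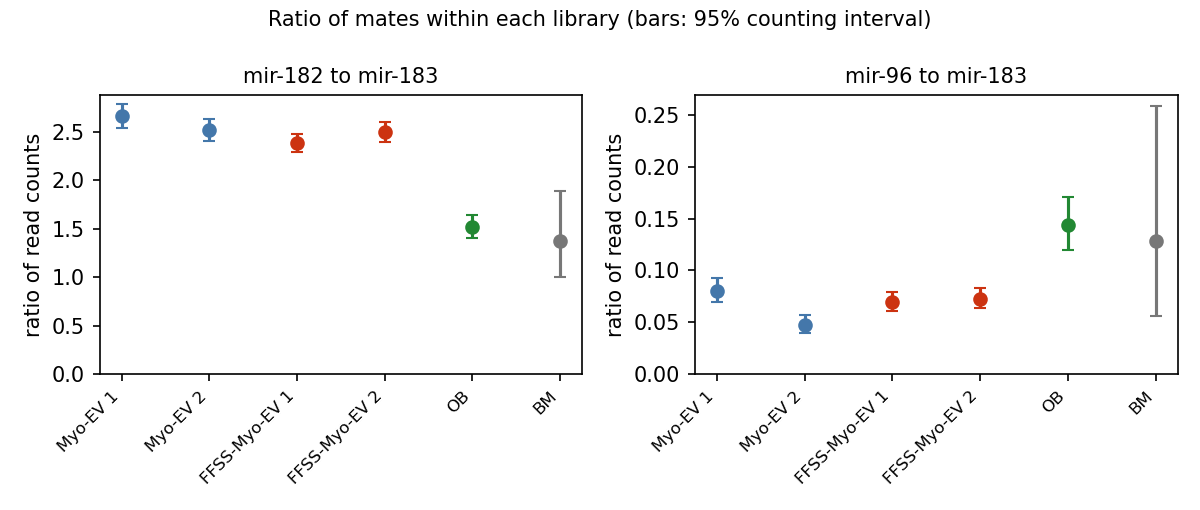
Ratio of the read counts of mir-182 to mir-183 (left) and of mir-96 to mir-183 (right) in each library, with bars for the 95% exact counting interval. The ratio of mir-182 to mir-183 is between 2.39 and 2.67 in the vesicles against 1.52 in OB and 1.37 in BM, and the ratio of mir-96 to mir-183 is at 0.0804 or below in the vesicles against 0.143 in OB and 0.129 in BM.

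The effect of FFSS on the cluster was examined by comparing FFSS-Myo-EVs with Myo-EVs on the counts of the 4 vesicle libraries with edgeR's quasi-likelihood test, fitted to 354 entries whose mean in these libraries reached 10, with Benjamini-Hochberg adjustment. All 3 members were tested, and 0 of 3 passed an adjusted p of 0.05, against 30.5% of all tested entries called in either direction, 12.1% higher and 18.4% lower. In edgeR, 0 of 3 had an unadjusted p under 0.05 as well. With DESeq2 and with limma, 0 of 3 passed an adjusted p of 0.05.

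The mean of mir-183 was 2901 ± 590 (SD, n = 2) in Myo-EVs and 3563 ± 56.1 (SD, n = 2) in FFSS-Myo-EVs. Its log2 fold change was 0.18 (standard error 0.13, 95% interval -0.07 to 0.43, adjusted p = 0.310 in edgeR). For mir-182 the mean was 7486 ± 1223 (SD, n = 2) and 8703 ± 132 (SD, n = 2), and the log2 fold change was 0.10 (standard error 0.14, 95% interval -0.18 to 0.38, adjusted p = 0.682 in edgeR). The least abundant mate mir-96 had a mean of 179 ± 29.5 (SD, n = 2) and 253 ± 4.1 (SD, n = 2), and its log2 fold change was 0.36 (standard error 0.20, 95% interval -0.02 to 0.75, adjusted p = 0.158 in edgeR). The intervals of all 3 members held 0 and reached up to 0.38 or more. Their standard errors rest on a spread pooled over the tested entries, not on each member's own SD.

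On the authors' values, the FFSS-Myo-EV libraries both exceeded the higher Myo-EV library for 3 of 3 members, as for 36.7% of all tested entries. TMM is edgeR's trimmed mean of log ratios. On values scaled by TMM, the FFSS-Myo-EV libraries both exceeded the higher Myo-EV library for mir-96 alone, against 26% of the entries. The groups were separate in the other direction, with FFSS-Myo-EVs below, for 115 of 354 entries and for no member. Compared with TMM, the authors' scaling raised the median log2 fold change over all entries by 0.119, and the calls were 54 higher and 39 lower in place of 43 and 65. The log2 fold changes of the members with the authors' scaling were 0.30 for mir-183, 0.49 for mir-96 and 0.22 for mir-182, with adjusted p between 0.0705 and 0.273 in edgeR.

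The replicates of Myo-EVs differed from each other more than those of FFSS-Myo-EVs, and not in the same direction for all mates. The second Myo-EV library was above the first for mir-183 and mir-182 and below it for mir-96, and the counting intervals of mir-183 (2387 to 2583 and 3195 to 3443) did not overlap. The log2 fold changes therefore depended on which Myo-EV library was kept. Without the second Myo-EV library, they were 0.44 for mir-183, 0.31 for mir-182 and 0.26 for mir-96 in edgeR. Without the first, they were 0.04 for mir-183, -0.0059 for mir-182 and 0.61 for mir-96. Such a fit keeps 1 Myo-EV library and takes its spread from the FFSS-Myo-EV pair alone. Its p-values thus leave out the spread between Myo-EV libraries.

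**Figure D5:**
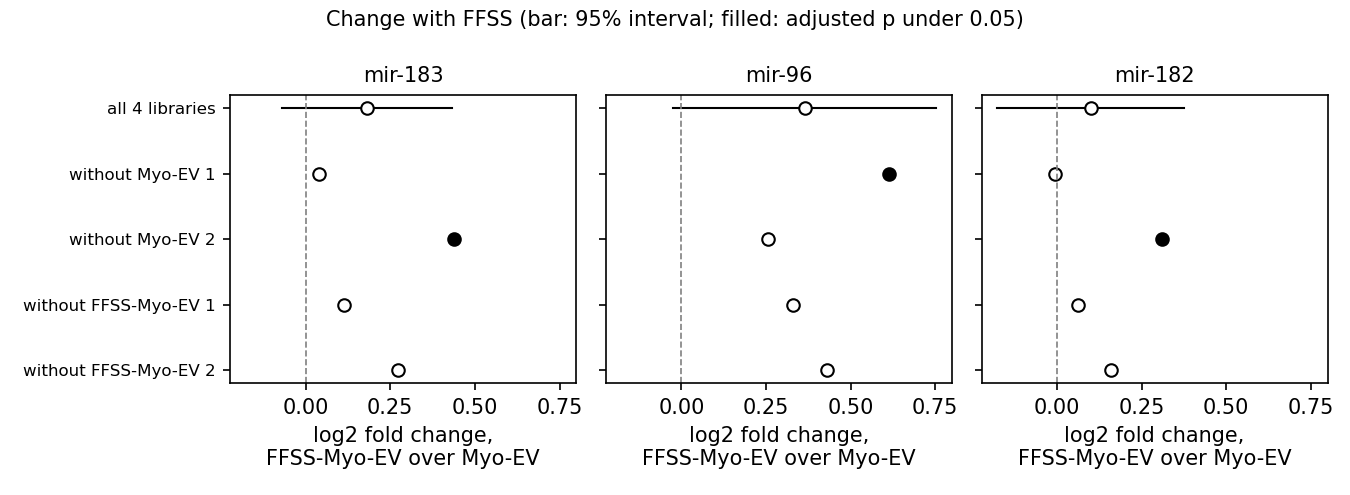
Log2 fold change of FFSS-Myo-EV over Myo-EV for mir-183, mir-96 and mir-182 in edgeR with all 4 vesicle libraries (bar, 95% interval) and with each library left out, where filled points have an adjusted p under 0.05. With all libraries the values are 0.18, 0.36 and 0.10 and none is filled. A fit without 1 library takes its spread from the group that keeps both. Filled points there leave out the spread of the other group.

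The study selected miRNAs by a mean above 1000 in FFSS-Myo-EVs and by a limit on the ratio of the group means. Each member met exactly 1 of the 2 limits. The ratio was 1.23 for mir-183 and 1.16 for mir-182, both with means above 1000 and ratios under the limit. It was 1.41 for mir-96, above the limit on the ratio, with a mean of 253 that lay under 1000. When the second Myo-EV library was left out, the ratio was 1.43 for mir-183, 1.31 for mir-182 and 1.27 for mir-96, all past the limit on the ratio, so that 2 of 3 members, mir-183 and mir-182, met both limits. When the first was left out, the ratio was 1.07 for mir-183 and 1.04 for mir-182, and 0 of 3 met both.

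The balance between mates was also compared between the vesicle groups. The log2 ratio of mir-182 to mir-183 was 1.37 ± 0.059 (SD, n = 2) in Myo-EVs and 1.29 ± 0.045 (SD, n = 2) in FFSS-Myo-EVs, and both FFSS-Myo-EV libraries were below both Myo-EV libraries (p = 0.33 in a two-sided exact permutation test, the smallest p that 2 libraries against 2 allow). For mir-96 to mir-183 it was -4.01 ± 0.53 (SD, n = 2) and -3.82 ± 0.046 (SD, n = 2), with both FFSS-Myo-EV libraries between the Myo-EV libraries (exact permutation p = 1). The difference between vesicle groups, -0.08 and 0.20, was below the difference between vesicles and OB for both pairs.

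Over the 6 libraries, the 5 entries whose pattern was most like the summed cluster were let-7e, let-7b, mir-452, mir-365-2 and mir-31, with Pearson's r from 0.992 to 0.995 on log2(value + 1) among 440 entries compared. The points include 4 vesicle libraries of the same cell line, and 12.5% of the entries had an r above 0.9. The most alike, let-7e, a member of the let-7 family of growth-restraining miRNAs, was at 33628 to 40645 in Myo-EVs, at 32576 and 35856 in FFSS-Myo-EVs, at 8452 in OB and at 998 in BM. The entry mir-452 was 143.5 and 207.2 in Myo-EVs, 279.9 and 252.5 in FFSS-Myo-EVs, 39.8 in OB and 4.8 in BM. The mates themselves correlated with r of 0.998 for mir-182 and mir-183, 0.987 for mir-96 and mir-183 and 0.980 for mir-96 and mir-182.

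The levels of other miRNAs of epithelial and sensory tissue were set beside those of the cluster. The list held mir-200a, mir-200b, mir-200c, mir-141 and mir-429, which maintain the epithelial state by repressing Zeb1 and Zeb2, the skin miRNAs mir-203 and mir-205, and mir-375, known from pancreatic islets. All 8 names were in the table, and their values summed to between 18.0 and 62.0 in the vesicle libraries, 443.4 in OB and 637.3 in BM. The cluster summed to between 9305 and 12575 in the vesicles, 1466 in OB and 69.5 in BM, so that the order of the summed values was the opposite. The sum of the list rested on few entries, mir-203 in OB (417.5) and mir-200b and mir-200c in BM (220.8 and 219.2). By entry, mir-203 was at 7.0 to 32.1 in the vesicles, below OB (417.5) and BM (97.3). For mir-200b, mir-200c and mir-429 the vesicles were also below both cells, but OB held only 16, 18 and 2 counts. The low mir-205 was above both cells, at 2.4 to 10.0 in the vesicles, 1.1 in OB and 0 in BM. OB was above BM for mir-203, and for mir-205 and mir-375 on 2 counts against 0. BM was above OB for mir-200a, mir-200b, mir-200c, mir-141 and mir-429. The share of all entries with each order was not computed. Only mir-203 passed the filter, and its log2 fold change in edgeR was 0.47 with a standard error of 0.41 (adjusted p = 0.435).

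Of other miRNAs described as acting on Foxo1 or Foxo3, 11 of 12 names were matched, with 12 entries, and 8 entries were tested. Of these, 3 were called higher in FFSS-Myo-EVs and 0 lower, beside 12.1% higher and 18.4% lower over all entries, and the median log2 fold change was 0.40, against -0.02 over all entries. The name not matched was mir-486, listed as mir-486a and mir-486b, whose log2 fold changes were -0.04 and 0.04 (adjusted p = 0.942 and 0.935 in edgeR). With both added, 3 of 10 tested entries were called higher and the median was 0.27. The called entries were mir-155, a miRNA of activated leukocytes (log2 fold change 0.70, standard error 0.13, adjusted p = 9.65e-07), mir-139 (0.52, standard error 0.16, adjusted p = 0.00568) and mir-221, a regulator of the cell cycle (0.51, standard error 0.13, adjusted p = 7.4e-04), all in edgeR. The study picked mir-155, mir-221, mir-222 and mir-27b from these libraries, so that the count is not independent of them. Without the first FFSS-Myo-EV library 1 of the 8 was called higher, and without the second Myo-EV library 5.

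Among the tested entries of this list, mir-27b, which shares described targets with the cluster, had the highest level, with a mean of 20006 ± 2176 (SD, n = 2) in Myo-EVs and 25674 ± 671 (SD, n = 2) in FFSS-Myo-EVs, 147286 in OB and 129665 in BM. It was thus higher in both cells than in the vesicles, whereas mir-182, mir-183 and mir-96 were lower in both. Its log2 fold change with FFSS was 0.24 (standard error 0.16, adjusted p = 0.286 in edgeR).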

How the data were processed

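Small RNA libraries were made by the authors from 90 ng of total RNA, reads were grouped by sequence and matched to miRBase in CLC Genomics Workbench, and the deposited count of each precursor entry is the whole number of reads, without normalization. The deposited normalized value, a signal, was made by the authors by conversion to a total and scaling with trimmed means, and equals the count times 1 constant per library (0.397 to 1.20). The submitters' processing notes name mm10. Which miRBase release was used, how many mismatches were allowed and how a read matching more than 1 precursor was counted are not given in the sources used here. All 6 libraries of both kinds of column were used.

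Counts of the 4 vesicle libraries were tested with edgeR 4.0.16 in R 4.3.3 (TMM, total count as library size, estimated dispersions, quasi-likelihood test, group as the only term), with a mean normalized value of at least 10 as the filter. The prior degrees of freedom were estimated as infinite. The spread behind p-values and standard errors was therefore pooled over entries, without weight on an entry's own replicates. Alternatives were DESeq2 1.42.0, limma 3.58.1, other scalings and filters, the replicate number as a block, and each vesicle library left out in turn. The limma fits used log2 of the authors' normalized values with pseudocounts 1 and 10. The edgeR script was tested on simulated data. Ratios, exact intervals and exact permutation tests were computed with Python 3.11.15, pandas 2.3.3 and scipy 1.17.1. Replicate libraries differed by more than sampling noise (chi-square per degree of freedom 93.3 for Myo-EVs and 15.9 for FFSS-Myo-EVs) and were counted separately. Sequences and positions are from RefSeq (GRCm38.p6), in which all 3 members were found, and from GENCODE M21.

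The entries named are the members, the 2 lists, the 5 entries most like the cluster, the mates of other clusters and the markers. A name was matched to an entry of that name or of that name with a copy number. The names mir-142, mir-145 and mir-486, listed only with a or b suffixes, were thus not matched. The members and lists were chosen with earlier results of these data known.
The entries mir-486a and mir-486b, the split of other clusters and the count of Foxo-list calls under each alternative were added after seeing the data.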

Additional observations from a re-analysis of the deposited data

How the results depend on the processing

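With all 4 vesicle libraries, the members' log2 fold changes stayed positive and uncalled in each of 9 other settings, with adjusted p from 0.0843 to 0.759 for mir-183, from 0.0645 to 0.380 for mir-96 and from 0.223 to 0.896 for mir-182. With 1 vesicle library left out in turn, where the lone library of a group is assumed to vary like the others, they ranged from 0.0387 to 0.44 for mir-183, from 0.26 to 0.61 for mir-96 and from -0.0059 to 0.31 for mir-182, and each member was called in 1 of 4 fits. The number of entries called ranged from 19 to 60 higher and from 21 to 72 lower in these fits. Fewer entries were called lower with the authors' scaling (39) and with limma (37 with either pseudocount), which was run on the authors' normalized values. The cause was not tested.

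Same-numbered vesicle libraries deviated together with a correlation of 0.20 over 354 entries, and no source ties them to each other. With the replicate block, 44 entries were called higher and 66 lower, the log2 fold changes were 0.19 for mir-183, 0.38 for mir-96 and 0.10 for mir-182, and no call of a member changed.

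With library totals, FFSS-Myo-EVs were 6.21, 3.08 and 10.0 times OB and 104, 57.5 and 185 times BM for mir-183, mir-96 and mir-182. With median-of-ratios size factors over the 6 libraries these values were 4.92, 2.43 and 7.90 for OB and 114, 62.7 and 202 for BM, and Myo-EVs were 1.85 times OB for mir-96 and 7.30 times for mir-182. The order of the mates and of the sources was as in the report under both scalings. The difference between vesicle groups in the log2 ratio of mir-96 turned to -0.18 (to mir-183) and -0.054 (to mir-182) without the second Myo-EV library. Over single libraries left out, these differences ranged from -0.18 to 0.58 and from -0.054 to 0.62. The Foxo list had 5 entries called higher with limma. The counts of mir-96 in BM (9) limit its ratios there.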

Other observations

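The shift of mates between vesicles and cells was set beside that of other clusters with a shared primary transcript, namely those of mir-17, mir-23a, mir-106b and mir-221, whose mates all had more than 3 counts in every library. Over their 22 pairs of mates, the mean log2 ratio of the 4 vesicle libraries differed from that of OB by 0.15 to 4.86, with a median of 1.35, and from that of BM by 0.03 to 5.19, with a median of 1.42. Of these pairs, 15 belonged to the mir-17 cluster, with a median of 2.00 for OB and 2.36 for BM, and the 7 pairs of the other 3 clusters had a median of 0.67 for OB (0.28 to 2.41) and 0.96 for BM (0.03 to 2.84). The pairs of the mir-183 cluster were at 0.73 (mir-182 and mir-183), 1.11 (mir-96 and mir-183) and 1.84 (mir-96 and mir-182) for OB, and at 0.88, 0.96 and 1.83 for BM. Several of the other mates, such as mir-19b-1, mir-92a-1 and mir-24-2, have further copies in the genome, and how reads shared by copies were counted is not given in the sources used here. Pairs of the same cluster share their counts.

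The cluster of mir-200b, mir-200a and mir-429 had at most 6 counts for any member in a vesicle library and up to 556 in BM, and that of mir-200c and mir-141 had at most 8 and 552.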
